A study of Homo sapiens with 6 samples.

Results

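H3K27ac peaks at 9 genes of antigen presentation were examined in SU-CCS-1. This established line was derived from a human clear cell sarcoma (CCS), a soft tissue tumor with melanocytic features, and its genotype is EWSR1::ATF1. The class I genes were HLA-B, HLA-C, B2M, TAP1, TAP2, TAPBP and NLRC5, and the class II genes CIITA and HLA-DRA served as the contrast. Genes were chosen by name, with earlier results of these data known. A peak was assigned to a gene when it overlapped the gene body or lay within 20 kb of it in GENCODE version 44. In all, 20 of the 30784 peaks met this rule, 18 of them at class I genes and 2 at class II genes. The libraries comprised 3 H3K27ac ChIP replicates and 3 inputs of the same line, for which no treatment is labelled, input being sonicated chromatin sequenced without immunoprecipitation. Every value is from this 1 line in culture. The file analysed is 1 merged list of peak positions, with no height and no value per replicate, so from it no spread between replicates can be given and no test between samples was made. Whether a gene has a peak and how wide the peak is are therefore descriptions of this list.

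Class I molecules display peptides from inside the cell to cytotoxic T cells. HLA-B and HLA-C encode heavy chains, which pair with beta-2 microglobulin, the product of B2M. TAP1 and TAP2 form the transporter that brings peptides into the endoplasmic reticulum, and TAPBP encodes tapasin, which holds empty class I molecules at that transporter. NLRC5 is the transactivator of class I genes, and CIITA is the related transactivator of class II genes, of which HLA-DRA encodes the alpha chain of HLA-DR. Class II expression is largely limited to professional antigen-presenting cells and to cells exposed to interferon-gamma. Class I and class II promoters share an enhanceosome platform, the SXY module, whose X2 element is a site for CREB and ATF family proteins and whose Y element is an inverted CCAAT box. H3K27ac marks active promoters and enhancers.

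The promoter sequences below are shown because each lies wholly inside the peak over its gene's start. They are the 250 bases before the RefSeq start site (build GRCh38.p14), written 5′ to 3′ on the strand of the gene, and were found for 6 of the 9 genes. For TAP1, which has a further RefSeq start, the canonical one was used. NLRC5, CIITA and HLA-DRA are the other members. Capitals mark matches, on either strand, to any of the motifs described afterwards.
HLA-B, chr6:31357180-31357429, minus strand: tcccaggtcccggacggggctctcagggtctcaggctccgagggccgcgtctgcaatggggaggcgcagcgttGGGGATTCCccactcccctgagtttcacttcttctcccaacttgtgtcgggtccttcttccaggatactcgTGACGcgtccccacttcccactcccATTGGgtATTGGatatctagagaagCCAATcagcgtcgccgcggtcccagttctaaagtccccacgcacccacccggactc
HLA-C, chr6:31272093-31272342, minus strand: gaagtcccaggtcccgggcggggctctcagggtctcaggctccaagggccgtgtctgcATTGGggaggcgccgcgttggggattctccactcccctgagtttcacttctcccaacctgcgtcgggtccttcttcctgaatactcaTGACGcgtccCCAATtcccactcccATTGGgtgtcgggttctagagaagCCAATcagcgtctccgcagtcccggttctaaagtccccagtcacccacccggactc
B2M, chr15:44711267-44711516, plus strand: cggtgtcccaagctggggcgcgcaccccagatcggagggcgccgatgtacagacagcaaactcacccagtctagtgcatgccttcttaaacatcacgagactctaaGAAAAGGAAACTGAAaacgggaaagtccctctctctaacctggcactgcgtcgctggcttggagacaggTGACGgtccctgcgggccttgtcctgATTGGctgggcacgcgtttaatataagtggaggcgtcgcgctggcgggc
TAP1, chr6:32853705-32853954, minus strand: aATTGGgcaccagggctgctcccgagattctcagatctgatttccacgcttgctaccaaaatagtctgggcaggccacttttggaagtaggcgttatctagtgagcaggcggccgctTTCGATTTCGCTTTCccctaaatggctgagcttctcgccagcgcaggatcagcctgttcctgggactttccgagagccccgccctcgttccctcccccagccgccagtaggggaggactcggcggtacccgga
TAP2, chr6:32838740-32838989, minus strand: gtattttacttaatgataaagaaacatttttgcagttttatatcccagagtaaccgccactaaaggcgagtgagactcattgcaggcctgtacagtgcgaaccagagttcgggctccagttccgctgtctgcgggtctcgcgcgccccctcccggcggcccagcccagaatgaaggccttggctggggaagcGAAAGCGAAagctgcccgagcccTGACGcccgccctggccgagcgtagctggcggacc
TAPBP, chr6:33314079-33314328, minus strand: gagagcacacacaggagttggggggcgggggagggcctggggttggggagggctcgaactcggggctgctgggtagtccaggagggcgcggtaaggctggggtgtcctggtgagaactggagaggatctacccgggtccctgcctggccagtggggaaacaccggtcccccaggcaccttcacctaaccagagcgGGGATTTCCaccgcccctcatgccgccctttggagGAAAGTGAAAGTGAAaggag

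All 7 class I genes had a promoter peak, meaning a peak with a base within 3 kb of the start of any transcript of the gene. In each of the 7 the peak covered the canonical start site, the start of the transcript that Ensembl names as representative. Neither class II gene had a peak over its canonical start. HLA-DRA had no promoter peak, and CIITA had 1 by the rule, at the far end of the gene. Among 20015 protein-coding genes, 63.4% had a promoter peak and 53.5% had a peak over the canonical start. Among the 149 protein-coding genes between HLA-F and TAPBP on chromosome 6, which include most of the members, the share with a promoter peak was 68.5%. Most protein-coding genes thus carried such a peak, and 7 of 7 is to be read against that background.

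**Figure D1:**
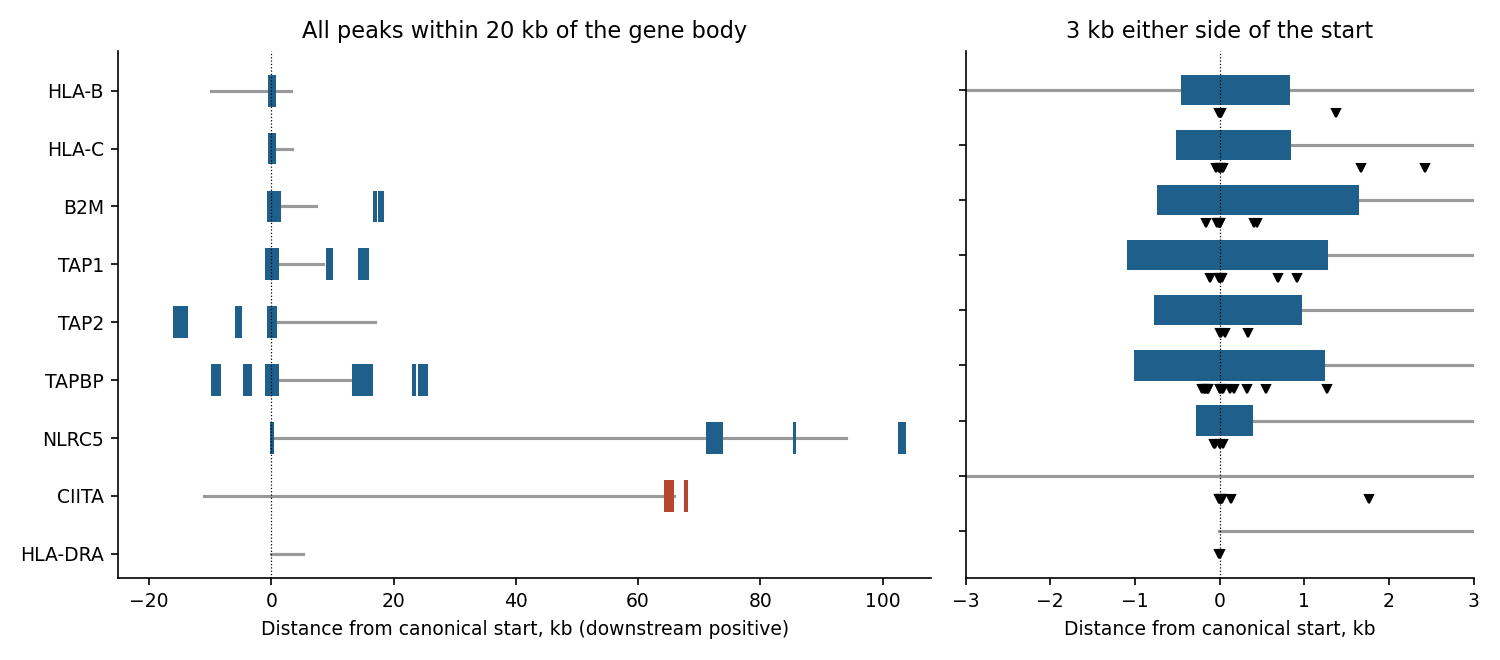
H3K27ac peaks (boxes, class I blue and class II red) at the 9 genes, placed by distance in kb from the canonical start with downstream positive; grey lines are gene bodies and triangles in the right panel are annotated starts. Each class I gene has a box over 0, while the boxes of CIITA begin 64.2 kb downstream and HLA-DRA has none.

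The heavy chain genes HLA-B (ENSG00000234745.14) and HLA-C (ENSG00000204525.18), both on the minus strand of chromosome 6, each carried a single peak, and the peaks of HLA-B and HLA-C were alike in size and placement. The HLA-B peak (chr6:31356351-31357640) measured 1290 bases and ran from 461 bases upstream to 828 bases downstream of the canonical start. The HLA-C peak (chr6:31271251-31272610) measured 1360 bases and ran from 518 bases upstream to 841 bases downstream. Both covered the promoter and overlapped canonical exons 1, 2 and 3, and no further peak lay within 20 kb of either gene. HLA-B has 9 annotated starts, of which 4 were within 3 kb of the peak, and the outermost one lay 9.43 kb from it. HLA-C has 9 as well, of which 7 were inside the peak and each was within 3 kb.

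HLA genes have close relatives in the genome, and reads from them can be placed wrongly or discarded. The promoter sequences of HLA-B and HLA-C were identical at 226 of 246 aligned positions, with 8 gap positions, or 89.0% over the whole alignment. Between any other pair of the 6 promoters identity was 47.3% to 51.9%. Windows of the study's read length were therefore looked up in the genome: 98.5% of the 50-base windows in the HLA-B peak and 97.2% of those in the HLA-C peak occurred once in the main hg38 chromosomes. For the sequence 1 kb either side of the HLA-DRA start, which had no peak, the share was 96.9%, and for CIITA it was 100%. When the alternate and unplaced sequences of hg38 were counted too, the shares fell to 26.1% for the HLA-B peak, 15.5% for the HLA-C peak and 0% around the HLA-DRA start. They were 0% at the peaks over the TAP1, TAP2 and TAPBP starts and 8.15% at that over the B2M start as well, so a low share on this count went with a peak at some genes and with none at HLA-DRA. Whether the authors aligned to those sequences is not given in the sources used here. The part of read placement in these results was not tested.

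B2M (ENSG00000166710.23), TAP1 (ENSG00000168394.13) and TAP2 (ENSG00000204267.19) had listed peaks wider than those of the heavy chain genes. Each of the 3 peaks also covered the start of another annotated coding gene. The B2M peak (chr15:44710781-44713160) measured 2380 bases, from 736 bases upstream to 1643 bases downstream of the start, and covered exon 1 and part of the next intron. It also held the canonical start of PATL2, which lies 194 bases away on the opposite strand. The TAP1 peak (chr6:32852431-32854800) measured 2370 bases, from 1096 bases upstream to 1273 bases downstream, over exons 1 and 2. It also held the start of PSMB9, a subunit of the immunoproteasome, 488 bases away on the opposite strand. A peak over such a pair of starts cannot be assigned to one gene rather than the other from its position. The TAP2 peak (chr6:32837771-32839510) measured 1740 bases, from 771 bases upstream to 968 bases downstream, again over exons 1 and 2. It also held the start of ENSG00000250264, an unnamed coding gene that starts 83 bases away on the same strand. Whether that gene is independent of TAP2 was not examined.

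TAP1 and TAP2 lie side by side, so the same 3 peaks stood within 20 kb of both. The peak between their promoter peaks (chr6:32843561-32844700) measured 1140 bases and covered the start of PSMB8, another immunoproteasome subunit. Joined at a distance of 12.5 kb, the distance used for enhancer calling in the study, the 3 peaks formed 1 region from 32837771 to 32854800 with 5.25 kb in peaks. That region ranked 1717 of 17049 by summed peak width. Each of the 4 genes in this cluster, TAP2, PSMB8, PSMB9 and TAP1, thus had a peak over its start.

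TAPBP (ENSG00000231925.14, chr6:33299694-33314284) stood in the densest neighborhood of the 9 genes, with 6 peaks and 11.1 kb in peaks within 20 kb. Its own promoter peak (chr6:33312831-33315090) measured 2260 bases, from 1012 bases upstream to 1247 bases downstream of the start, over exons 1, 2 and 3. A peak of 1500 bases that covered the start of ZBTB22 also counted as a promoter peak of TAPBP, as it lay 2967 bases from the outermost TAPBP start, just inside the limit of 3 kb. The widest of the 6, at 3400 bases, overlapped exon 8 at the end of TAPBP and covered the start of RGL2. The other peaks covered the starts of WDR46, PFDN6 and DAXX or lay within PFDN6. Apart from the promoter peak, most of the acetylated sequence near TAPBP therefore lay at the starts of other genes. The stitched region that held these peaks had 8 peaks and a rank of 321, the highest of the regions at the 9 genes.

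NLRC5 (ENSG00000140853.17, chr16:56989485-57083531) had the narrowest peak over its start among the class I genes. That peak (chr16:56989281-56989950) measured 670 bases, from 276 bases upstream to 393 bases downstream, and covered exon 1. A far wider peak (chr16:57060731-57063440) of 2710 bases lay inside the gene, 71.2 kb to 73.9 kb downstream of the start, across canonical exons 31 and 32, with 35.6% of its bases in annotated exons. Another, of 490 bases, lay 85.4 kb downstream and outside exons, and 72.3% of its 50-base windows were unique in the main chromosomes, the lowest share among the peaks at the 9 genes. By the rule both internal peaks were promoter peaks of NLRC5, because annotated transcripts start 1531 and 485 bases from them. These nearest transcripts are not annotated as protein-coding, but a protein-coding one starts 2666 bases from the wider peak. The gene has 28 annotated starts, of which 10 had a peak within 3 kb and 5 lay inside a peak. Those 5 were the cluster at the canonical start.

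The middle of the internal NLRC5 peak of 2710 bases is shown because it held an interferon-type motif and a STAT-type motif in intron sequence. The 96 bases below (hg38, plus strand) overlap no annotated exon, and capitals mark the match to GAAANNGAA and then that to TTCNNNGAA.
NLRC5, chr16:57062021-57062116: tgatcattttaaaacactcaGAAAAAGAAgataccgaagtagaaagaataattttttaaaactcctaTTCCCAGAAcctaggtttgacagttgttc
Of the central 250 bases of all 30784 peaks, 6.46% held GAAANNGAA and 4.95% held TTCNNNGAA. The central 250 bases of the peak over the NLRC5 start also held GAAANNGAA.

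Ordered by the width of the peak over the canonical start, the class I genes ran from B2M (2380 bases) through TAP1 (2370), TAPBP (2260), TAP2 (1740), HLA-C (1360) and HLA-B (1290) to NLRC5 (670). Peaks are listed on a grid of 10 bases, and without values per replicate no neighbors in this order can be called different. Over the 10717 protein-coding genes with such a peak the median was 1600 bases and the quartiles were 1150 and 2170 bases. B2M, TAP1 and TAPBP were above the upper quartile, at the percentiles 80.1, 79.9 and 77.3. TAP2 was near the middle at 57.8. HLA-C and HLA-B were below the median, at 36.6 and 32.9, and NLRC5 stood at 5.10. The median over the 7 genes was 1740 bases. In this list the widest of the 7 were thus at the light chain gene, 1 transporter gene and tapasin, and the narrowest was at the transactivator.

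**Figure D2:**
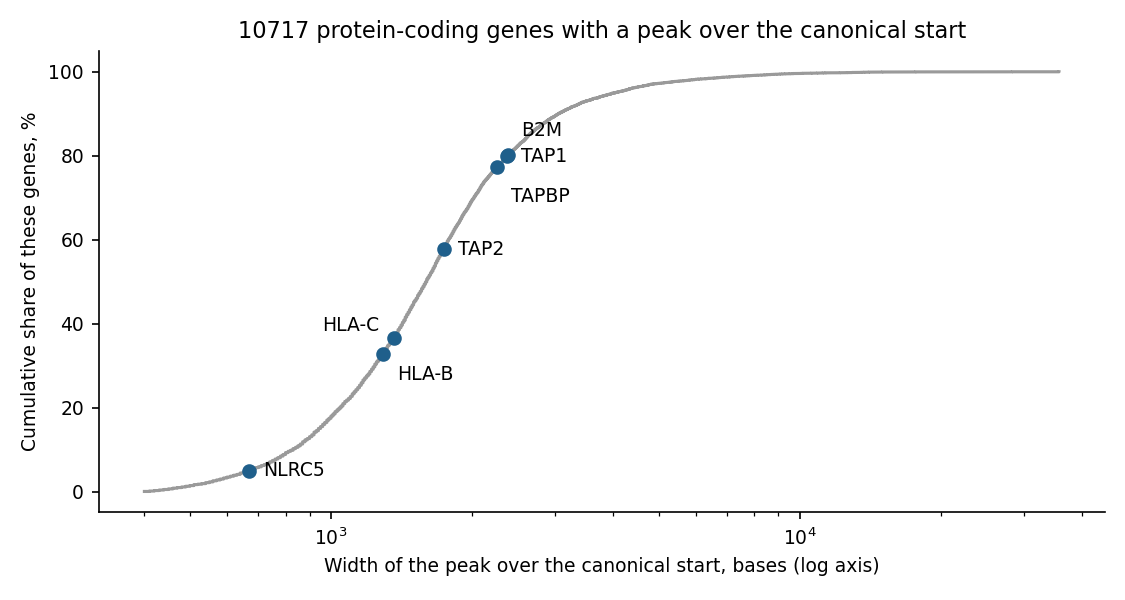
Cumulative share of protein-coding genes (vertical axis, %) by the width in bases, on a log axis, of the peak over the canonical start; the 7 class I genes are marked. NLRC5 lies at 670 bases near the bottom of the curve, HLA-B and HLA-C below the median of 1600, and B2M, TAP1 and TAPBP above the upper quartile of 2170.

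The class II genes differed in placement. HLA-DRA (chr6:32439878-32445046) lay in a stretch of 183 kb without any peak, which also held HLA-DRB1 and HLA-DRB5, the latter named after its place was seen. The nearest peak was 27.7 kb to its left and the next 155 kb to its right. That gap stood at the percentile 89.2 of all gaps between neighboring peaks. The canonical CIITA start lay in a gap of 196 kb, at the percentile 89.9. CIITA (chr16:10866222-10943021) has 16 annotated starts, spread over most of the gene. The starts at 10866222 and 10866260, the farthest upstream, lay 75.2 kb from the nearest peak, the canonical start lay 64.2 kb from it, and the protein-coding start 1.77 kb downstream of that lay 62.4 kb from it.

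The peak that gave CIITA its promoter call was at the other end of the gene. It measured 1590 bases (chr16:10941411-10943000), began 64.2 kb downstream of the canonical start, and held the canonical start of DEXI, which lies inside the annotated CIITA body. The whole peak lay in annotated CIITA exons, but overlapped no exon of the canonical transcript. It lay 692 bases from the start of a short CIITA transcript with no defined coding sequence, the only CIITA start of the 16 within 3 kb of a peak. None of the 16 lay inside a peak. The other peak at CIITA, of 520 bases, lay within CLEC16A. The list thus held no peak at any start of a CIITA transcript annotated as protein-coding, at the threshold of the peak calling.

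**Figure D3:**
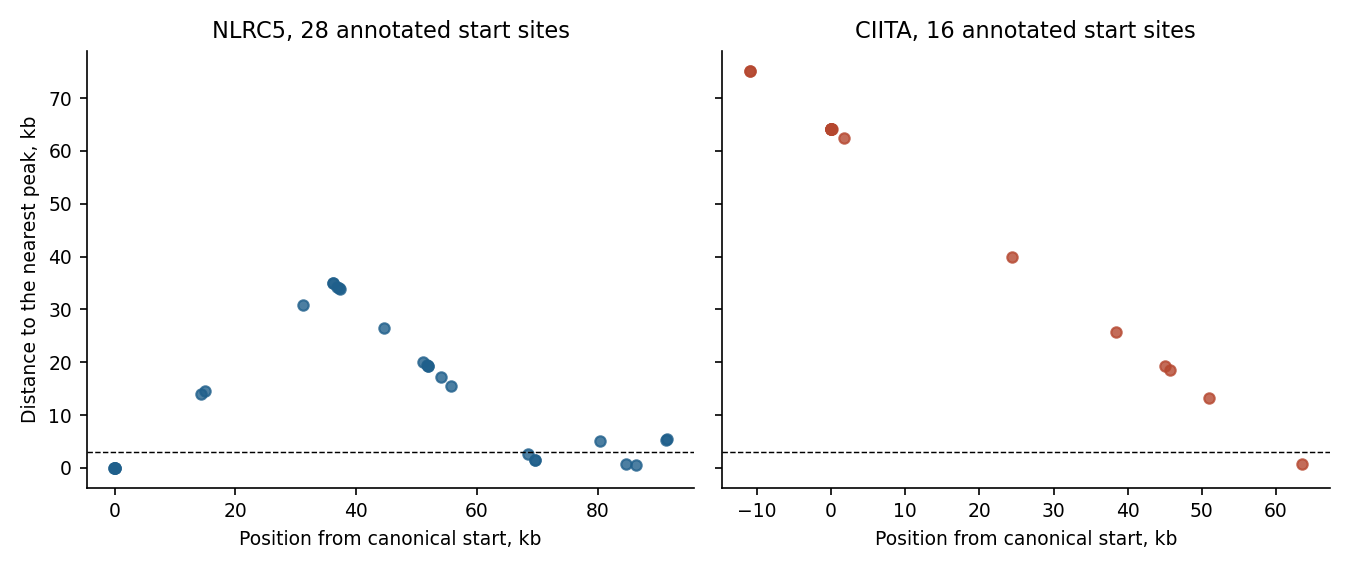
Distance in kb from each annotated start site of NLRC5 (left, 28 sites) and CIITA (right, 16 sites) to the nearest H3K27ac peak, against the position of the site in kb from the canonical start; the dashed line marks 3 kb. At NLRC5 5 sites at 0 lie inside a peak, whereas at CIITA only the site 63.5 kb downstream falls under the line.

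The 6 promoter windows were similar in base composition to promoters in general. Their GC content was 58.4% to 65.2%, against a median of 58.0% over 35116 RefSeq promoters. They held 10 to 19 CG dinucleotides each, against a median of 11. Motifs were searched on both strands. They were the ATF/CREB site TGACGTCA (CRE), its core TGACG, which also lies within TGACGTCA, the flexible form TGANNTCA, the AP1 site TGAGTCA, the Y-type motif CCAAT, the interferon-stimulated response element core GAAANNGAA (ISRE core), the gamma-activated site TTCNNNGAA bound by STAT proteins, and the NF-kB type site GGGNNTTCC.

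The ISRE core was in 4 of the 6 promoters, those of B2M, TAP1, TAP2 and TAPBP, and in 6.88% of all promoters. B2M, TAP1 and TAPBP each held 2 overlapping copies. In B2M these ran from 144 to 130 bases upstream of the start, in TAP1 from 133 to 119 and in TAPBP from 20 to 6, and the single TAP2 copy lay at 58 to 50. HLA-B and HLA-C had no match to these letters, which says nothing of other interferon-responsive sequences in them. The genes with the core were thus those for the light chain, the transporter and tapasin.

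The CRE core TGACG was in 4 of the 6, namely HLA-B, HLA-C, B2M and TAP2, and in 21.2% of all promoters. It began 106 bases upstream of the start in HLA-B, 105 in HLA-C, 75 in B2M and 35 in TAP2. CCAAT was in HLA-B, HLA-C, B2M and TAP1 and in 32.0% of all promoters. The only TAP1 match lay 249 to 245 bases upstream, at the far edge of the window, and that promoter held no TGACG. In HLA-B, HLA-C and B2M an inverted CCAAT followed TGACG on the side of the start, at 81 and 74, at 80 and at 49 bases upstream. This is the order of the X2 and Y elements in the SXY module, although a match to letters does not show that a factor was bound. The NF-kB type site was in HLA-B, at 177 to 169 bases upstream, and in TAPBP, at 55 to 47, and in 5.78% of all promoters. The other promoters had no match to GGGNNTTCC, which says nothing of NF-kB sites of other length or letters in them. The TAP1 window, for example, held GGGACTTTCC and the B2M window its reverse complement, which were not searched for.

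None of the 6 promoters held the whole CRE TGACGTCA, the flexible form TGANNTCA, the AP1 site or the gamma-activated site. The shares of all promoters with these were 1.65%, 10.1%, 4.20% and 6.57%. In the central 250 bases of the 20 peaks, TGANNTCA and TGAGTCA each occurred in 1, against 10.7% and 3.38% of the centres of all peaks. This was the peak of 640 bases 16.7 kb downstream of the B2M start, in sequence of which 89.3% of 50-base windows were unique in the main chromosomes.

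**Figure D4:**
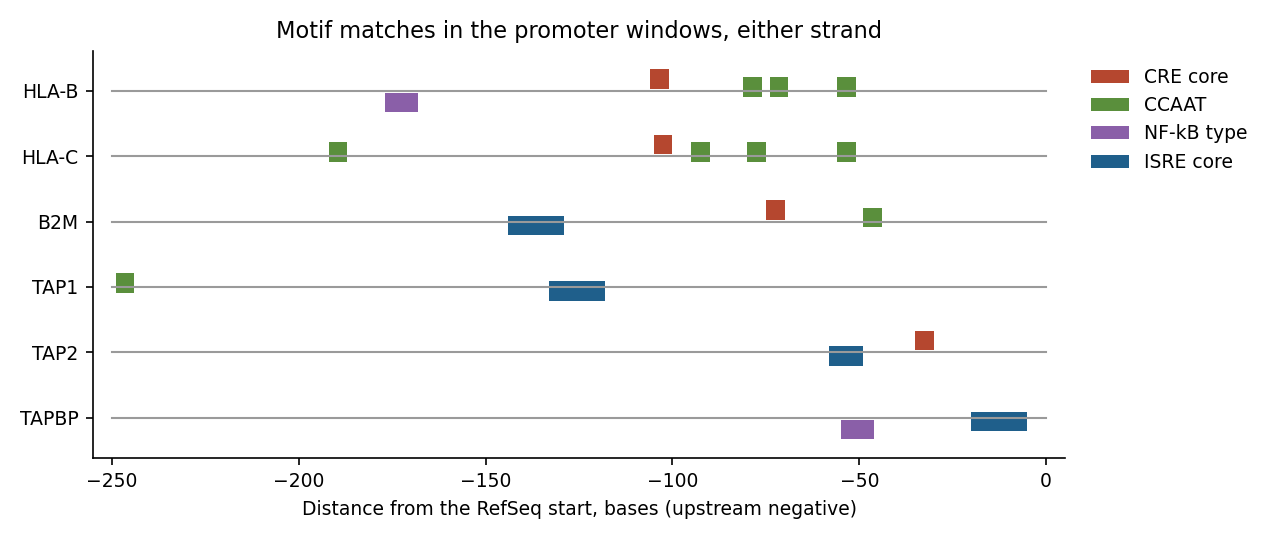
Positions of motif matches on either strand in the 250 bases before the RefSeq start of the 6 genes; the horizontal axis is the distance from the start in bases and each color is a motif. CRE core and CCAAT lie close together in HLA-B, HLA-C and B2M, and the ISRE core is in B2M, TAP1, TAP2 and TAPBP.

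Other genes of the class I pathway were read the same way, from a list of 33 that holds none of the members. This list, like the members, was drawn up with results of these data known. All 33 had a peak over the canonical start, with a median width of 1900 bases, against 53.5% of protein-coding genes. The median over the genes with such a peak was 1600 bases, and over all genes, those without a peak counted as 0, it was 730 bases. The range was wide, from 410 bases at HLA-G to 4320 bases at CREB1, which encodes a factor of the CREB and ATF family. By its middle, a promoter peak at 28 of the 33 lay nearest to a start of the gene itself. This was not so at PSMB8, PSMB10, PSME2, RFXANK and NFYA, so their peaks cannot be assigned to them alone from position. Any promoter peak of a gene counted here, so the 28 need not own the peak over their canonical start. That of PSMB9, which is among the 28, is the peak shared with TAP1. No share over all genes was counted for this measure.

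Among the non-classical heavy chains, which have little sequence variation between people, HLA-F had a peak of 1980 bases, HLA-E of 1290 bases and HLA-G of 410 bases. That of HLA-G was near the lower limit of the list, whose narrowest peak measured 400 bases. The 7 genes of peptide supply ranged from 1020 bases at ERAP2, an aminopeptidase that trims peptides, to 3210 bases at PSME2, a subunit of the proteasome activator PA28. PSMB10, the remaining immunoproteasome subunit, had a peak of 2190 bases. Of the 4 genes of peptide loading, TAPBPL had the widest peak (3380 bases), followed by CANX (2550 bases), CALR (1910 bases) and PDIA3 (1670 bases).

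The factors that bind class I and class II promoters also had a peak at each start. RFX5, RFXAP and RFXANK, which form the RFX complex on the X1 element, had peaks of 1600, 900 and 2610 bases. NFYA, NFYB and NFYC, which form the CCAAT-binding complex, had peaks of 3260, 1840 and 2420 bases. IRF1, an interferon-induced activator, had a peak of 1110 bases. Among the 7 interferon receptor and kinase genes the widest peak was that of JAK2 (2530 bases) and the narrowest that of TYK2 (590 bases).

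Of the 10 genes of the class II pathway list, 3 had a promoter peak, against 63.4% of protein-coding genes. A peak over the canonical start was found at 1, HLA-DPA1, against 53.5%. That peak measured 630 bases (chr6:33080461-33081090). It was also the promoter peak of HLA-DPB1, whose canonical start lay 4.47 kb away. HLA-DMA had its call from a peak of 6960 bases that held the start of BRD2, a bromodomain gene named here after its value was seen, 13.2 kb from the canonical HLA-DMA start. The list held no promoter peak for HLA-DRB1, HLA-DQA1, HLA-DQB1, HLA-DMB, HLA-DOA, HLA-DOB or CD74, the invariant chain of class II molecules. From HLA-DRA to HLA-DPB1, a stretch of 0.65 Mb that also contains TAP1 and TAP2, there were 8 peaks, and 3 of them were those of the TAP2 to TAP1 cluster.

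**Figure D5:**
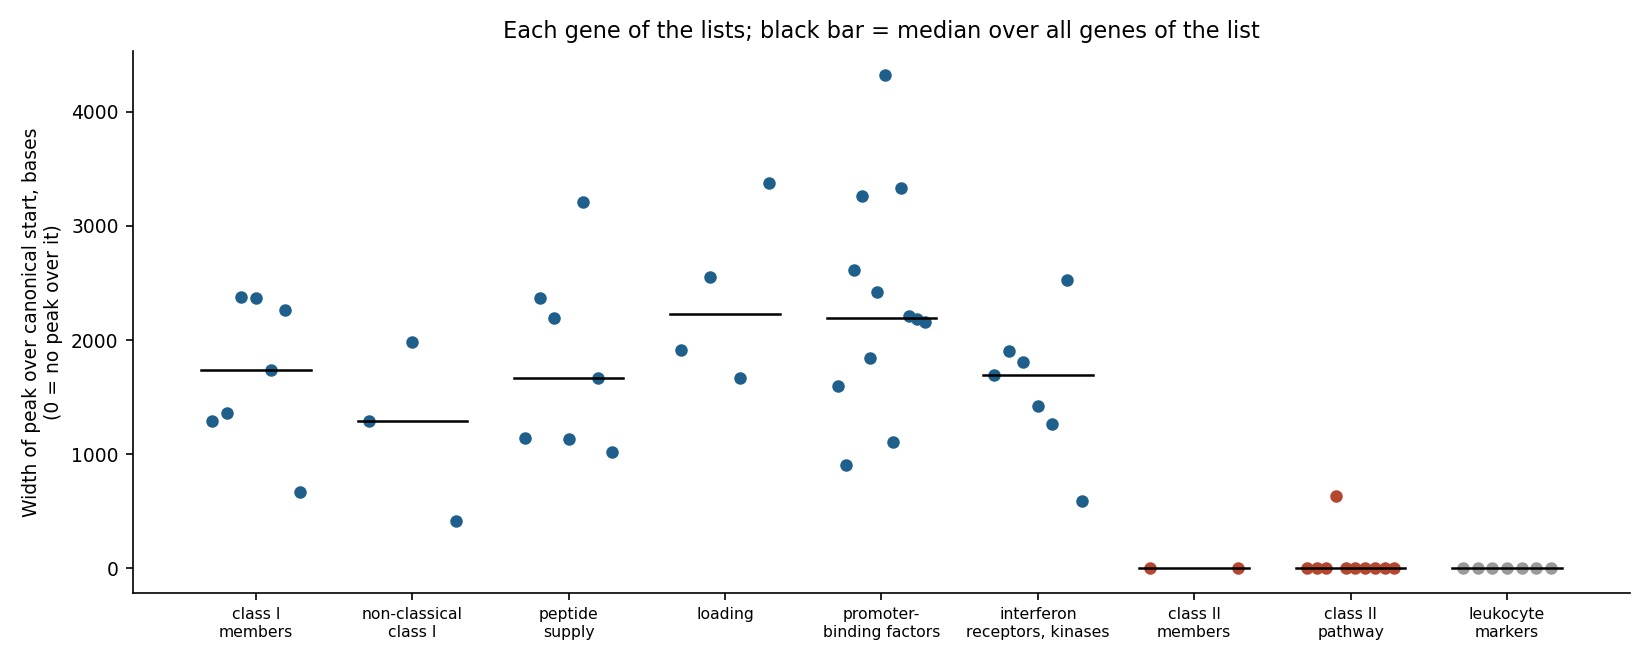
Width in bases of the peak over the canonical start for each gene of the lists (points; 0 where no peak covers it), with the median over all genes of a list as a black bar. Each gene of the class I lists is above 0, while the class II genes are at 0 apart from HLA-DPA1 at 630 bases, and the leukocyte markers are at 0.

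The label of the line was checked by the same measure. All 5 markers of CCS and of the melanocytic lineage, MITF, SOX10, PMEL, MLANA and S100B, had a promoter peak, against 63.4% of protein-coding genes. A peak covered the canonical start of 2 of them, MITF and SOX10, against 53.5%, so the count by itself says little of the label. The markers of leukocytes and professional antigen-presenting cells PTPRC, MS4A1, CD79A, CD14, ITGAX and CD3E had none. A gene without a peak was below the threshold of the peak calling or was filtered afterwards, so weaker acetylation there is possible.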

How the data were processed

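H3K27ac ChIP-seq and input libraries of SU-CCS-1 (3 replicates each) were analysed from 1 peak list. According to the submitters' processing notes and the study's methods, alignment by the authors was to hg38 with BWA (0.7.10-r789). They called broad peaks with MACS2 (2.2.6) against input, and removed duplicate reads and peaks in denylisted regions. How replicates were merged into 1 list is not given in the sources used here. The deposited positions carry no score, fold, p-value or count, and depth per sample is not given by them. Such calls depend on depth, input and cutoff, and broad calling joins neighboring stretches, so width also depends on signal height.

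Starts, bodies and exons came from GENCODE version 44, with genes shared by X and Y counted once. Coordinates are counted from 1. A percentile of width counts genes with a narrower peak plus an equal part of ties. Uniqueness was counted over 50-base windows on both strands. It and the promoter calls were tested on simulated data. Member promoters from RefSeq (GRCh38.p14) had the same sequence as hg38. Python 3.11.15, pandas 2.3.3 and Biopython 1.88 were used. Alternatives changed the start-site window, the starts, the peaks kept, the overlap and the distance.

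The members and lists were chosen with earlier results of these data known. The genes named are the members, the genes of the lists, and coding genes within 20 kb of a member with a promoter peak there; some genes of the lists are not reported here. Nothing was tested between samples, since the list has no values per sample.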

Additional observations from a re-analysis of the deposited data

How the results depend on the processing

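Of 54 alternatives over 15 results, 35 stayed within 1.5 times the value given above and 19 moved further. The count of 7 class I genes with a promoter peak held with a 1 kb window (61.7% of all protein-coding genes). It held with the starts of coding transcripts (61.3%) or the canonical start alone (59.9%). It also held with the widest 50% of peaks (49.0%, NLRC5 through its internal peak) and with peaks that contain a start (58.2%). With peaks nearest to a start of the gene itself the count was again 7, but no share over all genes was counted for that setting. With the widest 25% of peaks it was 4 (B2M, TAP1, TAPBP and NLRC5, again through its internal peak), while 26.9% of protein-coding genes kept a promoter peak. The class II count of 1 (CIITA) became 0 with coding starts, the canonical start, the widest 25% of peaks, peaks that contain a start, and peaks nearest to the gene. Among pathway genes, the widest 25% of peaks left 21 of 33 for class I. For class II, 1 of 10 was left by the canonical start and by nearest start (HLA-DPA1), and by the widest 50% and 25% of peaks (HLA-DMA). Peaks at class I genes numbered 10 when they had to overlap the body. Those at class II genes numbered 1 then, and 1 with the widest 50% of peaks. Fewer peaks or starts enter these settings by construction. The summed width of promoter peaks of TAPBP fell from 3760 to 2260 bases with a 1 kb window and with the canonical start, that of NLRC5 from 3870 to 1160 with the window and to 670 with the canonical start, and that of CIITA from 1590 to 0 with the canonical start. No paired analysis was possible because the list has no column for any replicate, and leaving out single replicates was likewise not run.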

Other observations

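Promoters of the class II pathway list held the Y-type motif without a peak over the canonical start. RefSeq promoters at the canonical start were found for 9 of the 10 genes, and CCAAT was in 9 of these 9, against 32.0% of all promoters and 10 of 27 in the class I pathway list. The remaining gene, HLA-DPA1, is the one with a peak over its canonical start, and RefSeq places its starts elsewhere. TGACG was in 3 of the 9 (HLA-DQB1, HLA-DPB1 and HLA-DMB) and in 21.2% of all promoters, and the ISRE core was in 3 (HLA-DRB1, HLA-DMB and CD74) and in 6.88% of all promoters. In the class I pathway list the ISRE core was in 4 of 27 promoters, those of HLA-F, PSMB10, PSME2 and ERAP2, and TGACG was in 9 of 27. The groups of that list differed in CCAAT. It was in 2 of 2 non-classical heavy chain promoters, 2 of 7 for peptide supply and 2 of 3 for loading. Among promoter-binding factors it was in 3 of 9, and among interferon receptors and kinases in 1 of 6. Of the class I members 4 of 6 held it, so CCAAT was not particular to class II.

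The promoter of PSMB9 held TGACG and CCAAT, and shared its peak with TAP1, whose promoter held 2 ISRE cores. The peak at PSMB8, between TAP2 and TAP1, held an ISRE core, a gamma-activated site and an NF-kB type site in its central 250 bases, in annotated exons.

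NFYC carried more acetylated promoter sequence than the other genes of the class I pathway list, with 7 promoter peaks and 16800 bases in all (99.4th percentile of genes with a promoter peak). This sum takes in peaks near any annotated start of the gene and was not split by start. The peak over its canonical start measured 2420 bases (80.8th percentile of genes with such a peak).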
